A study of Homo sapiens with 2 samples.

Results

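MDA-MB-436 cells with high IL1B transcript counts were compared with MDA-MB-436 cells in which no IL1B transcript was counted. MDA-MB-436 is a human triple-negative breast cancer line. It was grown as 1 culture, tagged with the lipid-anchored multiplexing oligo CMO304, pooled with the lines Hs578T and HCC38, and profiled with a droplet-based 3′ single-cell kit. The series holds 6 breast cancer lines in 2 pools of 3, all deposited under 1 aggregated gene expression sample, and 17605 barcodes in all. No drug, knockdown or other treatment is given for the cells used here, and both classes come from the same culture, pool and library.

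Of the 2858 barcodes that carry the CMO304 suffix, 549 had fewer than 10000 gene UMIs (unique molecular identifiers, each standing for 1 captured transcript), a further 74 had more than 20% mitochondrial UMIs, and in a further 138 CMO304 made up less than 80% of the oligo UMIs. The classes among the remaining 2097 cells were chosen by their IL1B UMIs alone. The 786 cells with 5 or more formed the IL1B-high class, which is 37.5% of the cells (exact Clopper-Pearson 95% interval 35.4 to 39.6%). The 670 cells with 0 formed the IL1B-negative class, which is 32.0% (30.0 to 34.0%). The other 641 cells, with 1 to 4 IL1B UMIs, are given as values between the classes. Because a measured gene of the same cells chose the classes, and because 1 culture gives no replicates, every difference is a description, with no p-value. All intervals cover counting error only.

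Interleukin-1 beta (IL1B) and interleukin-1 alpha (IL1A) are secreted ligands that signal through the receptor IL1R1 and the adaptor MYD88 to the transcription factors NF-kB and AP-1. Their best known target genes are neutrophil-attracting chemokines, matrix metalloproteinases and further IL1A and IL1B. Myeloid cells are the usual source of IL1B, and some basal-like breast cancer cells also transcribe it.

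The sequences upstream of the genes that the comparison turns on are shown because several hold matches to motifs of NF-kB and AP-1. Each is the 250 bases before a transcription start in RefSeq (GRCh38.p14), written 5′ to 3′ on the strand of the gene, with motif matches in capitals. Promoters were matched for IL1B, IL1A, CXCL1, CXCL2, CXCL3, CXCL8, CCL20 and SERPINB2, and not for MMP1, MMP3 or CASC19. Of the genes that fell 2-fold, DHRS2 and SNHG12 were matched and C19orf33 was not. The DHRS2 window, not printed, holds only a TATAAA match, and the SNHG12 window holds none of the motifs searched. The letters searched on both strands were GGGANNNNCC for NF-kB, TGANTCA for AP-1 and TTGCNNAA for C/EBP, and TATAAA was searched on the gene's strand only. IL1B lies on the minus strand, upstream region chr2:112836780-112837029, and its capitals mark a C/EBP match 215 bases before the start. IL1A is its neighbour on the minus strand, chr2:112784494-112784743, with a TATAAA match at 239 and an AP-1 match at 12 bases before the first of its listed starts. CXCL1 (plus strand, chr4:73869143-73869392) and CXCL2 (minus strand, chr4:74099196-74099445) hold the same NF-kB letters at 79 and 78 bases before the start, where a plus-strand and a minus-strand match overlap, and CXCL2 also holds a C/EBP match. CCL20 (plus strand, chr2:227813592-227813841) holds 3 separate NF-kB matches and a TATAAA match. SERPINB2 (plus strand, chr18:63887455-63887704) holds an AP-1 and a TATAAA match.
IL1B: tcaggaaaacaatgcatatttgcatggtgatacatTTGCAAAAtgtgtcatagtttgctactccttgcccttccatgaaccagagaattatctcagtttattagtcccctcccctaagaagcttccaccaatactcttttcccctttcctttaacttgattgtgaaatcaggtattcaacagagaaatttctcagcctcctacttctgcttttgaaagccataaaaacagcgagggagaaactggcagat
IL1A: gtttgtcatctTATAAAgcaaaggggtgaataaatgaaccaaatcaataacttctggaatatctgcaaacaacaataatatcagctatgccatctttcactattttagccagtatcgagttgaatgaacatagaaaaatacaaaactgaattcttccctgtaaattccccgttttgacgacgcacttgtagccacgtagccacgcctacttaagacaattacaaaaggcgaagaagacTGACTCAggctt
CXCL1: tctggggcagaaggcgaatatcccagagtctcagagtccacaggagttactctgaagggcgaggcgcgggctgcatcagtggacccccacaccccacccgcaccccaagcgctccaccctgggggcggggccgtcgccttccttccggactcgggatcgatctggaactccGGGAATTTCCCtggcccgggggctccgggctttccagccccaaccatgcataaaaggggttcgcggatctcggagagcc
CXCL2: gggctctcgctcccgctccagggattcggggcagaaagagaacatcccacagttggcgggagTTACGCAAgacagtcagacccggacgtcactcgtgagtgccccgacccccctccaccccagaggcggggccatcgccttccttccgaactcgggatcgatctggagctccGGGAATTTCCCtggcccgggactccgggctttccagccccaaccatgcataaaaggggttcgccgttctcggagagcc
CCL20: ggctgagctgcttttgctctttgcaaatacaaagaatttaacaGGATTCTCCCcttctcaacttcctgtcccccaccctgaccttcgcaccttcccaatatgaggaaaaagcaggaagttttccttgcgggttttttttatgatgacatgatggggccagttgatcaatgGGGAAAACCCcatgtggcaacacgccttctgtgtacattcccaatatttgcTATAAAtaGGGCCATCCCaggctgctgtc
SERPINB2: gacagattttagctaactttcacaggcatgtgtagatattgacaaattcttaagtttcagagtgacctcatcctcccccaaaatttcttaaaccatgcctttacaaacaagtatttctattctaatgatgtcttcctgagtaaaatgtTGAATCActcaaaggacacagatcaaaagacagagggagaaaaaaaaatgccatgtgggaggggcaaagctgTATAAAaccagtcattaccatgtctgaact

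A match of these letters is a description of the window and not of binding. Among all 35116 windows of this length in the table, 22.6% hold the NF-kB letters, 6.57% the AP-1 letters, 9.05% the C/EBP letters and 6.80% the TATAAA letters. Among the 9831 windows of measured genes (10 CPM or more in either class) the shares are 27.8, 4.25, 6.01 and 3.36%. A match to the NF-kB letters is thus common among promoters. CXCL3 holds the same GGGAATTTCC as CXCL1 at the same distance, and CXCL8 holds an NF-kB, an AP-1 and a TATAAA match.

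The oligo group was first checked against the marker genes of the 3 pooled lines, since the labels name the lines of the pool without pairing them with oligos. Summed UMI counts scaled to a total of 1 M (CPM) of the MDA-MB-436 marker CDKN2A were 126 in CMO304 cells, 3.89 in CMO305 cells and 1.44 in CMO306 cells. IL13RA2, a decoy receptor for interleukin-13, stood at 81.7, 1.08 and 1.05 CPM. RB1, a tumour suppressor gene known to be lost in this line, stood at 4.39, 43.5 and 82.5 CPM. COL1A1, a fibroblastic collagen gene of Hs578T, stood at 18.4 CPM in CMO304 cells and 833 CPM in CMO305 cells, and the basal cadherin gene CDH3 of HCC38 at 0.730 and 61.3 CPM in CMO304 and CMO306 cells. Of the other markers listed for the line, UCHL1 stood at 536, 8.56 and 444 CPM in CMO304, CMO305 and CMO306 cells. PRAME stood at 83.5, 34.6 and 33.5 CPM. UCHL1 thus did not set CMO304 apart from CMO306 cells, and PRAME differed less than CDKN2A and IL13RA2. The CMO304 cells carried the MDA-MB-436 markers, of which CDKN2A, IL13RA2 and low RB1 separated them from both other groups. Of the markers of myeloid and other immune cells, PTPRC and LYZ had 1 UMI each over all 2097 cells, and AIF1, TYROBP, C1QA and the T-cell marker CD3E had 0. CD14 had 206 UMIs, ITGAM 49 and FCER1G 42. CD14 stood at 2.67 CPM in IL1B-high and 2.65 CPM in IL1B-negative cells. The 22 immune genes listed summed to 19.5 CPM in IL1B-high and 22.5 CPM in IL1B-negative cells, with 9 of them at 0 in both classes.

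IL1B UMIs were spread unevenly over the cells. The 2097 cells held 16344 IL1B UMIs. Of these 14988 (91.7%) lay in the IL1B-high class, a share set in part by the rule that chose the class. The 210 cells with the most (10% of the cells) held 55.5% of all IL1B UMIs, and 9 cells had 100 or more, up to 493. The median was 2 UMIs over all cells and 12 in the IL1B-high class. The counts run on without a gap around the threshold: 107 cells had exactly 4 and 73 cells exactly 5. With every cell thinned to 10000 UMIs, the variance-to-mean ratio (Fano factor) of IL1B was 10.7, rank 21 of 8135 genes, against a median of 1.09 over those genes. That of IL1A was 1.53, rank 590. The plot of IL1B UMIs per cell shows the long upper tail in this oligo group.

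**Figure D1:**
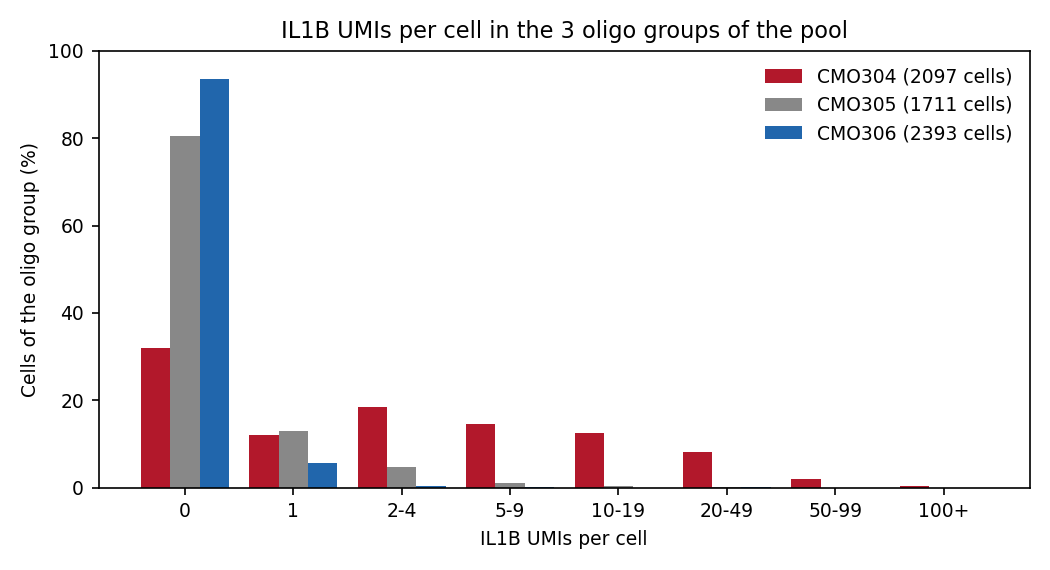
Share of cells (y axis, %) with a given number of IL1B UMIs (x axis, binned) for the 3 oligo groups of the pool. In the CMO304 group 32.0% of cells had 0 IL1B UMIs and 37.5% had 5 or more, against 1.69% with 5 or more in CMO305 and 0.167% in CMO306.

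Free RNA of the pool can give IL1B UMIs to cells that do not transcribe it. IL1B UMIs were found in 68.0% of CMO304 cells, 19.6% of CMO305 cells and 6.35% of CMO306 cells, whose median depths were 31136, 38404 and 34948 UMIs. IL1B stood at 221, 10.6 and 2.49 CPM in the 3 groups. In CMO306 cells that is 1.13% of the CMO304 level, close to the 1.42% for IL1A and 1.29% for IL13RA2. In CMO305 cells it is 4.80%, above the 1.18% for IL1A and 1.33% for IL13RA2. A cell with 1 IL1B UMI, of which there were 255, is therefore not separable from background. In contrast, 5 or more UMIs occurred in 4 of 2393 CMO306 cells and 29 of 1711 CMO305 cells. The part of free RNA in the CMO305 cells was not tested.

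The classes differed in depth and in cell-cycle content. The median was 33104 gene UMIs and 6115.5 genes in IL1B-high cells and 28282 UMIs and 5572.5 genes in IL1B-negative cells, which gave summed counts of 31.1 and 20.8 M UMIs. Mitochondrial shares had medians of 7.36% and 7.44%, while the nuclear RNA MALAT1 stood at 5371 CPM in IL1B-high and 7052 CPM in IL1B-negative cells, a log2 ratio of -0.39. Of the 13 mitochondrial and nuclear RNA genes listed, 9 lay below 0. Their part in the other differences was not tested. G2/M genes took a median 0.571% of UMIs in cells with 0 IL1B UMIs, 0.542% with 1 to 4, 0.437% with 5 to 9 and 0.421% with 10 or more. G1/S genes went the other way, at 0.273, 0.290, 0.310 and 0.325%. The 6 genes that rose 2-fold are given further on in depth-matched cells and in cells low in cycle genes.

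Few genes differed in summed level. Of 8327 genes measured at 10 CPM or more in either class (IL1B left out), 6 (0.0721%) rose 2-fold or more in IL1B-high cells on the scale log2(CPM + 1), and 3 (0.036%) fell that far. At 1.5-fold the counts were 38 (0.456%) and 26 (0.312%). A short gene list with no gene past 1.5-fold is thus close to these shares. The median log2 ratio over all measured genes was -0.01, with the 5th and 95th percentiles at -0.27 and 0.27. The 6 genes that rose 2-fold are 2 collagenolytic or matrix-degrading metalloproteinases (MMP1, MMP3), 2 chemokines (CXCL1, CCL20), an inhibitor of plasminogen activators (SERPINB2) and a long non-coding RNA (CASC19).

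**Figure D2:**
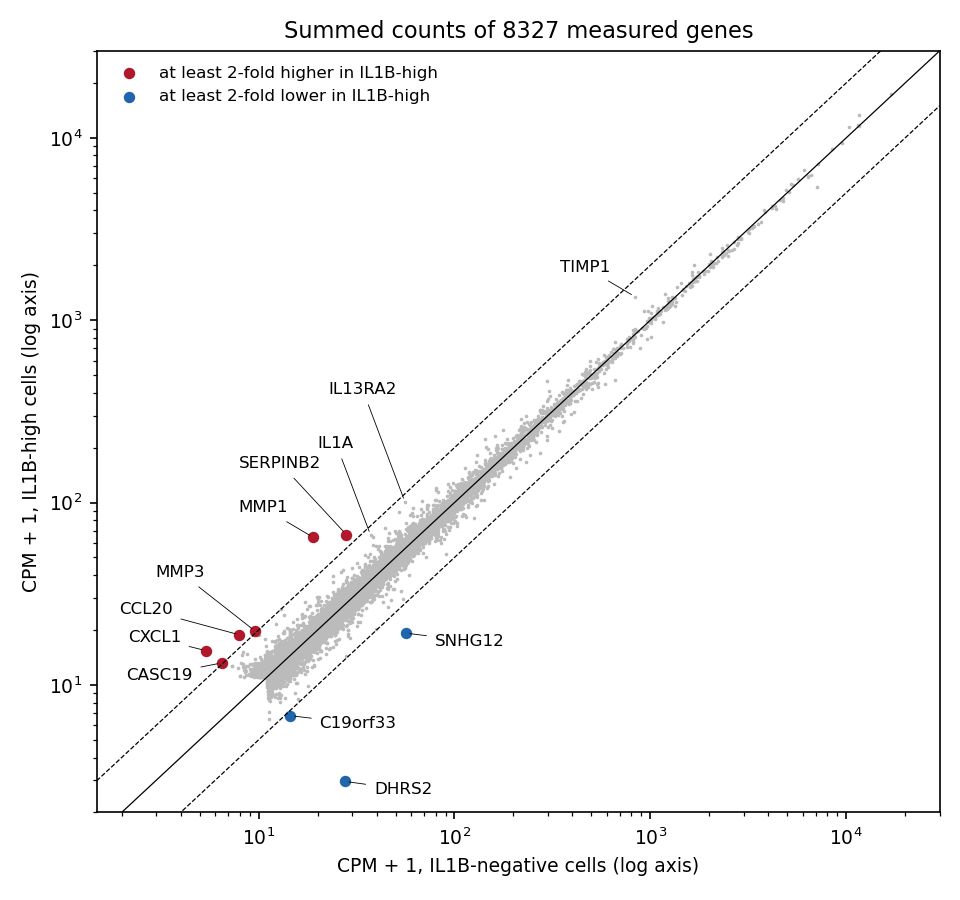
Summed CPM + 1 of each measured gene in IL1B-negative cells (x axis, log) and in IL1B-high cells (y axis, log); the solid line marks equality and the dashed lines 2-fold. The 8327 genes follow the solid line closely, and 6 genes lie above and 3 below the dashed lines.

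Among the IL-1 family ligands, IL1A rose with IL1B. IL1A stood at 36.3 CPM in cells with 0 IL1B UMIs, 46.9 CPM with 1 to 4, 53.3 CPM with 5 to 9 and 71.9 CPM with 10 or more. The order of the 4 levels follows that of IL1B. Over the IL1B-high class IL1A was at 65.2 CPM, 1.79-fold the IL1B-negative level (1.65 to 1.95). After thinning each cell to 10000 UMIs, 43.1% of IL1B-high and 27.3% of IL1B-negative cells had an IL1A UMI (39.6 to 46.7% and 24.0 to 30.9%). Before thinning, 315 of the 670 IL1B-negative cells had at least 1 IL1A UMI, as did 626 of the 786 IL1B-high cells, so the pair was not exclusive to the same cells.

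IL1A ends 45.2 kb from IL1B on chromosome 2 (GRCh38, IL1A 112773915 to 112784590, IL1B 112829751 to 112836903, both on the minus strand). Of the genes within 500 kb, IL1A was the only one past 1.5-fold. The measured gene with the next largest log2 ratio was PAX8, at 26.4 and 22.0 CPM and a log2 ratio of 0.25. Of the family members nearby, IL36G and IL36A had 0 UMIs in both classes, IL37 had 3 in IL1B-high and 6 in IL1B-negative cells, and the receptor antagonist IL1RN had 12 and 9. Across the 23 chromosomes with at least 20 measured genes, the median log2 ratio ran from -0.08 to 0.04.

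The other ligand measured, IL18, stood at 11.9 CPM in IL1B-high and 13.1 CPM in IL1B-negative cells. Among the receptors only SIGIRR, an inhibitory receptor of the family, was measured, at 80.8 and 75.4 CPM. The signalling receptor IL1R1 lay under the minimum of 10 CPM, with 266 UMIs (8.54 CPM) in IL1B-high and 92 UMIs (4.43 CPM) in IL1B-negative cells, a ratio of 1.93 (1.52 to 2.47). Its co-receptor IL1RAP was at 3.28 and 3.32 CPM, a ratio of 0.986 (0.719 to 1.36), and the decoy receptor IL1R2 had 2 and 0 UMIs.

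IL1B is made as a precursor that inflammasome caspases cut, and gasdermin pores let it out. None of the 9 measured genes of processing and release passed 1.5-fold, a count close to the all-gene shares of 0.456% higher and 0.312% lower. The median log2 ratio of the 9 genes was 0.14. Gasdermin E (GSDME) had the largest difference, at 11.2 and 7.56 CPM, followed by the inflammatory caspase CASP4 at 35.7 and 27.4 CPM and NINJ1, which ruptures the membrane of dying cells, at 72.9 and 58.5 CPM. GSDMD, the pore of pyroptosis, stood at 70.9 and 62.4 CPM. CASP1, which cuts the IL1B precursor, was scarce: 109 UMIs (3.50 CPM) in IL1B-high and 28 UMIs (1.35 CPM) in IL1B-negative cells, a ratio of 2.60 (1.70 to 4.09). The sensor NLRP3 had 1 UMI in all, in an IL1B-high cell, and its adaptor PYCARD stood at 4.50 and 3.03 CPM.

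None of the 12 measured genes that carry the IL-1 signal passed 1.5-fold, close to the all-gene shares of 0.456% higher and 0.312% lower. The median log2 ratio of the 12 genes was -0.00, from -0.37 for the kinase CHUK (10.6 and 14.0 CPM) to 0.12 for TAB3 (10.1 and 9.20 CPM). The adaptor MYD88 stood at 8.25 and 10.2 CPM and the kinase IRAK1 at 187 and 175 CPM. Of 22 measured NF-kB subunits and feedback genes, 1 passed 1.5-fold: TNIP3, a binding partner of the feedback inhibitor TNFAIP3, at 13.7 and 7.75 CPM. TNFAIP3 itself was at 49.4 and 35.1 CPM, and the apoptosis inhibitor BIRC3 at 14.0 and 10.5 CPM. The subunit genes NFKB1 (25.6 and 28.7 CPM) and RELA (59.5 and 61.4 CPM), and the inhibitor gene NFKBIA (42.5 and 41.1 CPM), were nearly level. The list's median was 0.02.

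Chemokines had the highest median of the lists with 5 or more measured members, a log2 ratio of 0.73. Of 35 listed chemokine and cytokine genes 8 were measured, of which 2 rose 2-fold and 5 rose 1.5-fold. Over all measured genes those shares were 0.0721% and 0.456%. None of the 8 fell 1.5-fold, and 2 lay below 0. CXCL1, which draws neutrophils through the receptor CXCR2, stood at 4.38 CPM with 0 IL1B UMIs, 8.84 with 1 to 4, 15.1 with 5 to 9 and 14.0 with 10 or more, so its last step was not a rise. Over the classes CXCL1 was 14.4 against 4.38 CPM, a ratio of 3.29 (2.62 to 4.17). Its transcripts were spread unevenly: 167 IL1B-high cells had at least 1, and 5 of them held 37.4% of the class's CXCL1 UMIs. The pool also held CXCL1 from CMO306 cells, at 69.4 CPM against 9.94 CPM over all CMO304 cells, and 3.86% of CMO305 cells had a CXCL1 UMI, against 21.2% of IL1B-high and 7.91% of IL1B-negative cells. The part of free CXCL1 RNA was not tested. CCL20, the ligand of CCR6 on T cells and dendritic cells, stood at 6.98, 11.7, 15.9 and 18.9 CPM over the 4 IL1B classes, and at 17.8 CPM in IL1B-high cells, 2.55-fold the IL1B-negative level (2.12 to 3.09).

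The neighbours of CXCL1 on chromosome 4 moved the same way. CXCL2 stood at 25.1 and 12.1 CPM, a ratio of 2.07 (1.80 to 2.40) that is just under 2-fold on log2(CPM + 1), at 0.99. CXCL3 stood at 16.8 and 9.78 CPM and CXCL8, interleukin-8, at 27.6 and 16.3 CPM. CXCL1, CXCL2 and CXCL3 are near-identical in sequence, so 3′ reads could be split among them. The measured cytokines outside the chemokines did not pass 1.5-fold: IL32 was at 251 and 265 CPM, CSF1 at 20.5 and 17.5 CPM and CLCF1 at 15.7 and 17.2 CPM.

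Below the 10 CPM minimum, some chemokines and cytokines picked after their values were seen had few UMIs with wide differences. CCL2, which draws monocytes, had 172 UMIs in IL1B-high and 12 in IL1B-negative cells (5.52 and 0.578 CPM), a ratio of 9.56 (5.33 to 18.9). These lay in 21 and 6 cells, and 5 cells held 62.2% of the IL1B-high UMIs. CSF3, the granulocyte growth factor, had 200 and 27 UMIs in 53 and 16 cells, a ratio of 4.94 (3.29 to 7.68). IL6 had 108 and 49 UMIs, a ratio of 1.47 (1.04 to 2.10), and TNF 0 and 1. CCL5 went the other way, at 127 and 168 UMIs and a ratio of 0.504 (0.397 to 0.639).

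Matrix proteases and plasminogen genes had a median log2 ratio of 0.41 over 12 measured genes, of which 3 rose 2-fold and 5 rose 1.5-fold. Over all measured genes those shares were 0.0721% and 0.456%. None of the 12 fell 1.5-fold, and 2 lay below 0. MMP1, interstitial collagenase, had the largest ratio of all measured genes. Its level was 18.0 CPM with 0 IL1B UMIs, 24.6 with 1 to 4, 44.7 with 5 to 9 and 73.9 with 10 or more. MMP1 thus stood highest in the top class, and over the IL1B-high class it was at 63.4 CPM, 3.52-fold the IL1B-negative level (3.15 to 3.94). MMP1 UMIs were found in 232 of 786 IL1B-high and 96 of 670 IL1B-negative cells. After thinning, the shares were 18.4% and 8.06% (15.8 to 21.3% and 6.11 to 10.4%).

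MMP3 (stromelysin-1), next to MMP1 on chromosome 11, stood at 8.62, 7.07, 10.8 and 23.1 CPM over the 4 IL1B classes, so that its difference lay in the top class. Over the IL1B-high class it was 18.7 CPM, a ratio of 2.17 (1.83 to 2.58). MMP1 and MMP3 overlap WTAPP1 on the opposite strand. SERPINB2 (plasminogen activator inhibitor 2) stood at 27.1, 31.4, 37.4 and 81.6 CPM, again with the widest step to the top class. Its ratio was 2.43 (2.21 to 2.67), and 29.3% of IL1B-high and 15.4% of IL1B-negative cells had a UMI after thinning. SERPINB2 shares its annotated span with SERPINB10 on the same strand.

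TIMP1, an abundant inhibitor of metalloproteinases, rose 1.5-fold. It stood at 835, 935, 1194 and 1428 CPM over the 4 classes, a ratio of 1.61 between IL1B-high and IL1B-negative cells (1.58 to 1.64). The plasminogen activator gene PLAU (39.4 and 37.0 CPM) and its receptor gene PLAUR (39.2 and 39.6 CPM) were nearly level, and TIMP3 stood at 11.7 and 14.5 CPM. CASC19, a long non-coding RNA that overlaps other non-coding genes, was at 12.2 and 5.49 CPM, a ratio of 2.22 (1.80 to 2.77).

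**Figure D3:**
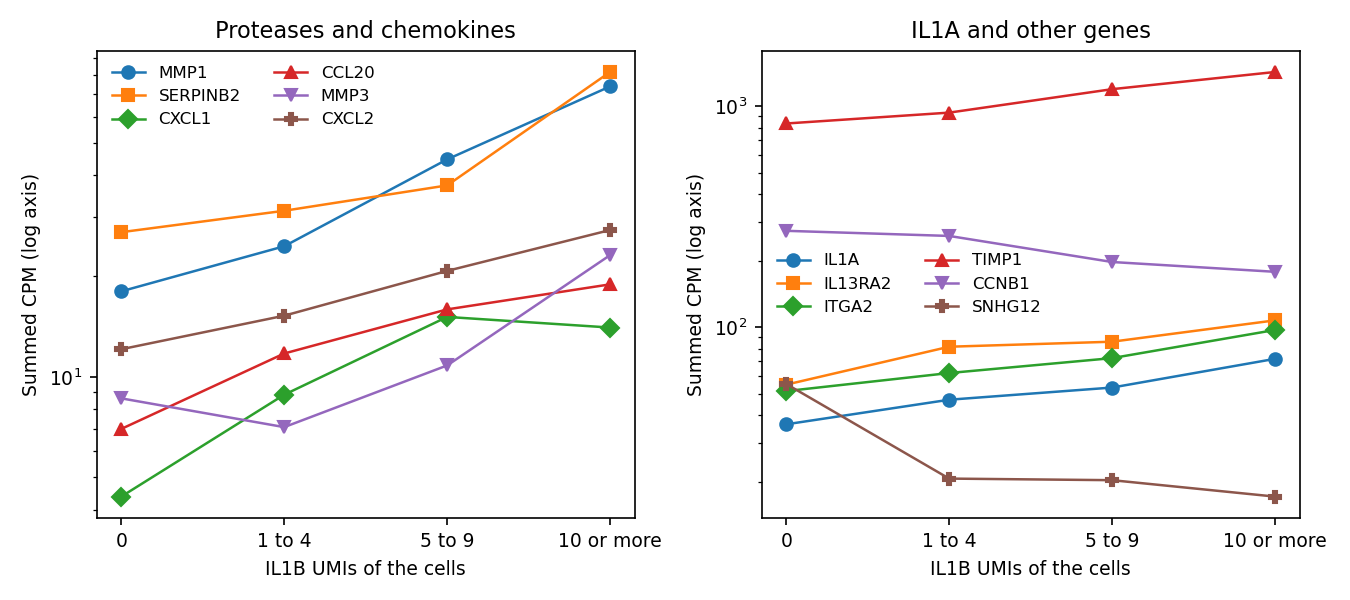
Summed CPM (y axis, log) of 12 genes in cells with 0, 1 to 4, 5 to 9 and 10 or more IL1B UMIs (x axis). MMP1 goes from 18.0 to 73.9 CPM and SERPINB2 from 27.1 to 81.6 CPM, while SNHG12 drops between 0 and 1 to 4 IL1B UMIs, from 55.3 to 20.6 CPM.

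The genes whose level followed IL1B most closely were named as the 10 measured genes that rise in every step of the 4 classes with the largest log2 ratio from the lowest to the highest class. They were MMP1 (1.98), SERPINB2 (1.56), CCL20 (1.32), CASC19 (1.15), CXCL2 (1.12), LAMA4 (1.00), NPTX1 (0.98), KRT34 (0.97), IL1A (0.97) and IL13RA2 (0.95). LAMA4 encodes a laminin chain, NPTX1 a neuronal pentraxin and KRT34 a hair keratin. In all, 690 measured genes (8.29%) rise in every step.

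Most IL1B-high cells had few of these transcripts. Of MMP1, CXCL1, SERPINB2, CCL20 and MMP3, at least 1 had a UMI at 10000 UMIs per cell in 29.9% of cells with 0 IL1B UMIs, 37.1% with 1 to 4, 40.7% with 5 to 9 and 55.9% with 10 or more. At least 3 of these 5 genes were found in 1.19, 2.18, 1.64 and 8.52% of those cells. In 393 of the 786 IL1B-high cells none of the 5 had a UMI at that depth.

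Cells just outside and just inside the threshold differed in both directions. With 4 IL1B UMIs (107 cells) IL1A was at 51.9 CPM, MMP1 at 34.3 and SERPINB2 at 37.2, and with 5 (73 cells) IL1A was at 53.7 CPM, MMP1 at 22.2 and SERPINB2 at 30.4. TIMP1 was at 967 and 1194 CPM ITGA2 at 60.8 and 85.6 CPM and CCL20 at 19.5 and 8.95 CPM in the same cells.

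By the share of cells with a UMI, with every cell thinned to 10000 UMIs, 65 of 8327 genes (0.781%) were at least 10 percentage points higher and 7 (0.0841%) at least 10 points lower in IL1B-high cells. Of these, 12 and 2 also passed 1.5-fold in summed level. Without thinning the count of higher genes was 1345 and that of lower genes 0, in cells whose median depths were 33104 and 28282 UMIs. ITGA2, the collagen-binding integrin alpha-2, had the largest difference: 51.0% of IL1B-high and 32.1% of IL1B-negative cells, at 88.2 and 51.3 CPM. ITGB8, an integrin that activates TGF-beta, was at 13.5 and 7.23 CPM, and both ITGA2 and ITGB8 rose 1.5-fold.

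Of 62 measured genes in the list of surface proteins, 3 passed 10 points, and the list's median log2 ratio was 0.07. The following genes past 10 points were picked after their values were seen. TFPI2, an inhibitor of serine proteases, was found in 70.2 and 53.6% of cells, and the surface glycoprotein gene CDCP1 in 61.8 and 46.3%. ANPEP (CD13, an aminopeptidase) was found in 59.4 and 44.5%, the carbonic anhydrase gene CA12 in 44.5 and 31.0%, and the growth factor gene FGF2 in 59.9 and 45.2%. ALDH1A3, which makes retinoic acid, was found in 71.6 and 56.6% of cells, at 222 and 143 CPM. EGFR was found in 60.9 and 50.5% of cells and IL6ST, the shared receptor of the interleukin-6 family, in 76.5 and 64.8%.

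**Figure D4:**
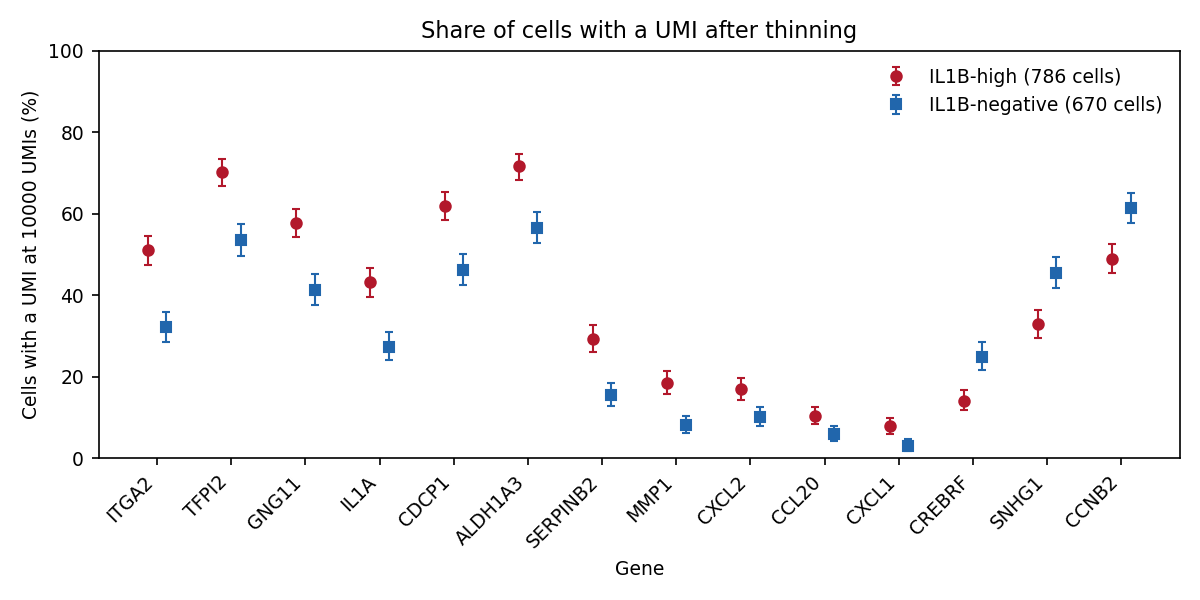
Share of cells with at least 1 UMI (y axis, %) of 14 genes in IL1B-high (circles) and IL1B-negative cells (squares), each cell thinned to 10000 UMIs; bars are exact 95% intervals of counting error. ITGA2 shows the widest gap, 51.0 against 32.1%, and SNHG1 and CCNB2 lie lower in IL1B-high cells.

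IL13RA2, one of the markers of the line, rose 1.5-fold, at 99.6 and 54.9 CPM (ratio 1.81, 1.69 to 1.94) and at 38.5 and 29.0% of cells after thinning. IL1A, itself on the list of markers of the line, rose as given above. CDKN2A, UCHL1 and PRAME were nearly level: CDKN2A stood at 123 and 129 CPM, UCHL1 at 558 and 494 CPM and PRAME at 85.2 and 78.2 CPM. PAPSS2, which makes the sulfate donor of the cell (23.3 and 12.4 CPM), and TNFAIP6, an inflammation-induced hyaluronan-binding protein (12.2 and 7.18 CPM), also rose 1.5-fold. So did the pentraxin PTX3 (40.5 and 25.4 CPM) and the elastase inhibitor PI3 (63.7 and 37.6 CPM). TNFAIP6, PTX3 and PI3 were picked after their values were seen.

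Of the 3 genes that fell 2-fold, SNHG12 rests on the most cells. SNHG12, a host transcript of small nucleolar RNAs, stood at 55.3 CPM with 0 IL1B UMIs and at 20.6, 20.3 and 17.1 CPM in the other classes. The low level thus already held at 1 to 4 IL1B UMIs, and the fold between IL1B-negative and IL1B-high cells was 3.03 (2.74 to 3.36). SNHG12 UMIs were found in 37.5% of IL1B-negative and 37.9% of IL1B-high cells before thinning and in 17.01 and 12.98% after it, and 5 cells held 31.6% of the IL1B-negative and 21.7% of the IL1B-high UMIs. In cells below the median cell-cycle share its log2 ratio was -0.94, under 2-fold. C19orf33 stood at 13.5 and 5.78 CPM in IL1B-negative and IL1B-high cells. Its log2 ratio of -1.10 was -0.83 with classes drawn after thinning and -0.94 by the mean CPM of each cell, both short of 2-fold. DHRS2, a mitochondrial reductase gene, stood at 26.5 and 1.96 CPM, but 5 cells held 95.6% of its IL1B-negative UMIs and 1 cell had 436 of the 551. Without the top cell of each class DHRS2 was at 5.54 CPM in IL1B-negative cells, under the minimum, and the log2 ratio was -1.76. With the top cells included, 14 IL1B-negative and 10 IL1B-high cells had any DHRS2 UMI.

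DDIT3, ATF3 and CREBRF fell 1.5-fold. DDIT3 (CHOP), a transcription factor of the unfolded protein and amino acid response, stood at 28.7 CPM in IL1B-high and 53.6 CPM in IL1B-negative cells. ATF3, a partner of the same response, stood at 13.3 and 26.9 CPM, and CREBRF, a regulator of it, at 19.3 and 38.7 CPM. With 1 to 4 IL1B UMIs ATF3 (13.9 CPM) and CREBRF (21.6 CPM) were already near their level in IL1B-high cells, while DDIT3 stood between the classes, at 38.2 CPM. With classes drawn after thinning, ATF3 was at a log2 ratio of -0.22 and DDIT3 at -0.51, both short of 1.5-fold, and CREBRF at -1.21. The 24 measured genes of the unfolded protein and amino acid response had a median log2 ratio of -0.16. Only DDIT3 among them passed 1.5-fold, against 0.312% of all measured genes that fell this far. SNHG1, a second small nucleolar RNA host gene, was at 51.4 and 89.5 CPM. The kinase gene CLK1 (17.1 and 28.2 CPM) and the immediate early genes KLF10 (28.4 and 46.5 CPM) and MAFF (17.5 and 27.5 CPM) also fell. In cells below the median cell-cycle share KLF10 was at a log2 ratio of -0.12 and MAFF at -0.37, which ends both calls.

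The interferon list had a median log2 ratio of -0.03 over 25 measured genes. Of these 2 fell 1.5-fold, IFIT1 (5.49 and 10.3 CPM) and IFIT2 (9.28 and 14.8 CPM), against 0.312% of all measured genes. IFIT2 UMIs were found in 8.65% of IL1B-high and 8.21% of IL1B-negative cells before thinning, and 5 cells held 59.9% and 38.4% of them. With classes drawn after thinning IFIT2 was at a log2 ratio of -0.08, and in cells with 0 BST2 UMIs IFIT1 was at -0.20, so neither call held throughout. BST2 (tetherin) stood at 95.3 and 127 CPM and was found in 19.6 and 27.5% of cells after thinning. In cells with 0 BST2 UMIs (589 IL1B-high and 445 IL1B-negative), an alternative chosen after seeing the data, MMP1, MMP3 and SERPINB2 stayed past 2-fold, while CCL20 (log2 ratio 0.92) and CASC19 (0.92) fell short. CXCL1 was at 1.16 there but under the 10 CPM minimum. The 7 measured MHC class I genes had a median of -0.06, and none passed 1.5-fold.

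Cell-cycle genes moved as groups of small differences. Of 51 measured G2/M genes 50 lay below 0 and the median log2 ratio was -0.33, with 2 past 1.5-fold, CKAP2 (81.2 and 125 CPM) and NDC80 (27.6 and 42.1 CPM). CCNB1, the mitotic cyclin B1, was at 185 and 273 CPM, short of 1.5-fold. Of 41 measured G1/S genes 36 lay above 0, with a median of 0.14 and none past 1.5-fold. CCNE2, an S-phase cyclin, was at 12.2 and 8.57 CPM, and the replication helicase gene MCM6 at 37.4 and 28.9 CPM. Over all measured genes 48.4% had a ratio above 0, and 0.312% fell 1.5-fold.

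In cells below the median share of both cycle lists together (452 IL1B-high and 299 IL1B-negative), MMP1 (log2 ratio 1.64), SERPINB2 (1.14) and MMP3 (1.08) stayed past 2-fold. There CCL20 was at 0.93, CASC19 at 0.28 and IL1A at 0.71, and CXCL1 at 1.17 under the 10 CPM minimum. In depth-matched cells (583 in each class) all 6 genes stayed past 2-fold, with MMP1 at 2.07 and CCL20 at 1.47, and IL1A was at 0.86.

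**Figure D5:**
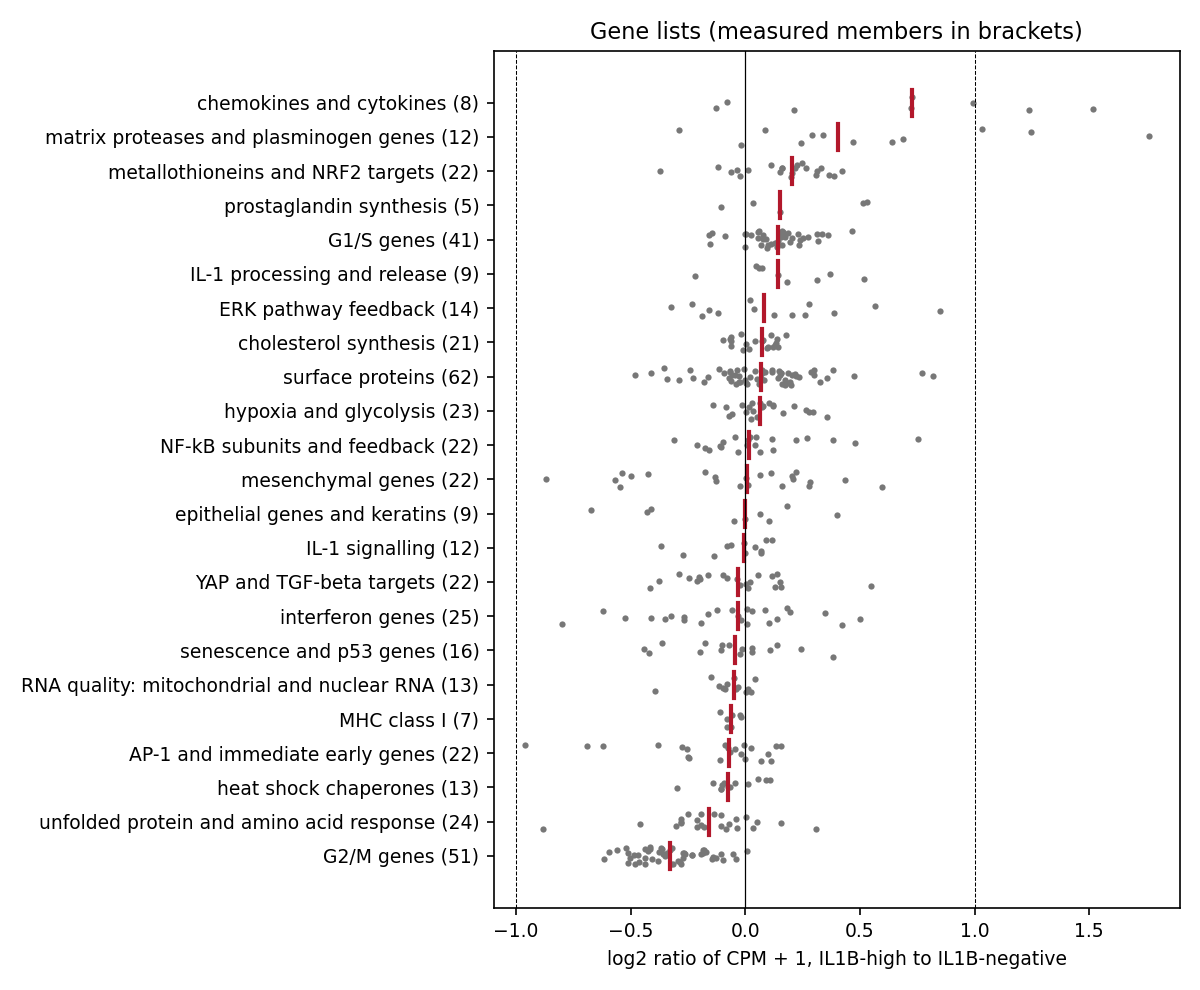
log2 ratio of CPM + 1 between IL1B-high and IL1B-negative cells (x axis) for the measured members of each gene list (points) with the list's median (red bar); dashed lines mark 2-fold. Chemokines (median 0.73) and matrix proteases (0.41) lie highest and G2/M genes (-0.33) lowest, while NF-kB genes (0.02) and IL-1 signalling genes (-0.00) centre on 0.

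In the remaining lists few genes passed 1.5-fold. Among all measured genes 0.456% rose and 0.312% fell that far. None of the 22 measured metallothionein and NRF2 target genes did, and their median log2 ratio was 0.20, with the thioredoxin reductase gene TXNRD1 at 408 and 304 CPM and AKR1C1 at 93.5 and 71.2 CPM. In prostaglandin synthesis the phospholipase gene PLA2G4A stood at 18.3 and 12.4 CPM and the synthase gene PTGES at 169 and 152 CPM. The 22 measured AP-1 and immediate early genes had their median at -0.07. Of these 3 fell 1.5-fold (ATF3, KLF10 and MAFF), a larger share than the 0.312% of all measured genes. FOSL1 stood at 266 and 242 CPM. Mesenchymal genes had a median of 0.01 over 22 measured genes, with 1 past 1.5-fold in each direction: the transcription factor gene PRRX1 (57.2 and 37.5 CPM) and THY1 (8.83 and 17.0 CPM). THY1 stood at 811 CPM in CMO305 cells, and with doublets and cells that carry transcripts of another line left out its log2 ratio went from -0.87 to -0.09, which ends that call. The collagen gene COL1A1, short of 1.5-fold, went from -0.55 to 0.00 in the same cells. Epithelial genes and keratins had a median of -0.00 over 9 measured genes, of which SFN fell 1.5-fold, at 7.52 and 12.6 CPM.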

How the data were processed

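Single-cell libraries of 6 lines were deposited by the authors as 1 matrix of raw UMI counts, 36601 genes and 12 oligos by 17605 barcodes. Per the file headers, Cell Ranger 6.1.2 produced it, and per the submitters' processing notes the build was GRCh38 (hg38). How cells were called and oligos assigned is not given in the sources used here. Barcode suffix 6 holds CMO304. Barcode sequences found under more than 1 suffix numbered 22, and 5 cells of the 2 classes share theirs with a cell of the other capture. The left-out suffix 6 barcodes included 66 with 5 or more IL1B UMIs.

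From the counts, UMIs were summed per class, scaled to CPM and compared as log2(CPM + 1) with a pseudocount of 1, for genes with 10 CPM in either class. Ratios of CPM carry exact conditional binomial 95% intervals and shares exact Clopper-Pearson 95% intervals. Shares were taken at 10000 UMIs per cell after random thinning, and no cell was too shallow for it. No test across samples was possible, since the classes are cells of 1 library. Scrublet (scanpy 1.11.5) called 120 of the capture's 6656 barcodes (1.80%) as doublets, among them 3 IL1B-high and 4 IL1B-negative cells, which stayed in and were left out as an alternative together with cells that carry transcripts of another line. The count model package edgeR 4.0.16 served only for TMM scaling. Gene positions come from GENCODE 29 (GRCh38), matched for 8321 of 8327 measured genes, and promoters from RefSeq (GRCh38.p14), matched for 6756 of 8326 gene symbols.

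Cells, gene lists and comparisons were chosen with earlier results of these data known. Named genes were the measured genes of the IL-1 lists, the 15 with the largest and the 15 with the smallest log2 ratio, up to 3 at either end of each list, line and immune markers, and the 10 most like IL1B. Further genes past 1.5-fold or 10 points, and genes under the 10 CPM minimum, were picked after their values were seen. The alternatives were depth matching, thinned classes, class limits of 3 or 10 IL1B UMIs, per-cell means, TMM, stricter filters on mitochondrial and oligo shares, doublet removal, low-cycle cells, another pseudocount and other minimums. Cells with 0 BST2 UMIs and cells of at least 20000 UMIs were added after seeing the data. Some genes are not reported here.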

Additional observations from a re-analysis of the deposited data

Results flagged for a closer look

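IL1B also appeared outside the line compared. Of 1711 CMO305 cells, whose leading markers are those of Hs578T, 29 (1.69%, exact 95% interval 1.14 to 2.43%) had 5 or more IL1B UMIs, against 4 of 2393 CMO306 cells (0.167%, 0.0456 to 0.427%). These cells had up to 43 IL1B UMIs, 334 in all, and all 29 stayed within the CMO305 oligo limit, with a median oligo share of 93.0%. SERPINB2 stood at 180 CPM in the 29 cells and 39.4 CPM in the 1376 CMO305 cells with 0 IL1B UMIs, a ratio of 4.57 (4.01 to 5.19). Of the 267 SERPINB2 UMIs in the 29 cells, 75 lay in 1 cell. Before thinning, 23 of the 29 had a SERPINB2 UMI, against 32.1% of all CMO305 cells. CXCL1 and MMP3, which rose in IL1B-high MDA-MB-436 cells, had 0 UMIs in the 29 cells, too few cells to tell their level from that of the others (the intervals of the ratios reach 2.66 and 3.73), and CCL20 had 13, all in 1 cell. MMP1, CXCL2 and IL1A stood higher in the 29 cells, on only 4, 10 and 3 UMIs. MMP1 was at 2.70 and 0.502 CPM (ratio 5.37, 1.37 to 15.3) and CXCL2 at 6.74 and 2.39 CPM (2.83, 1.32 to 5.36). IL1A was at 2.02 and 0.574 CPM (3.52, 0.690 to 11.3). CXCL8, which rose 1.5-fold in IL1B-high MDA-MB-436 cells, stood at 26.3 and 36.4 CPM (ratio 0.722, 0.512 to 0.991). CXCL3, which rose too, was at 2.02 and 6.80 CPM (0.298, 0.0611 to 0.876). DDIT3, which fell in IL1B-high MDA-MB-436 cells, stood at 57.3 and 27.7 CPM (2.07, 1.64 to 2.57). SNHG12, which fell too, was at 19.6 and 11.97 CPM (1.63, 1.09 to 2.37). The Hs578T marker COL1A1 stood at 1167 and 804 CPM. Markers of other lines of the pool moved too: UCHL1 was at 24.9 and 8.02 CPM, with 29 of its 37 UMIs in 1 cell, and CDKN2A at 9.44 and 3.79 CPM. The median depth was 46244 and 37318 UMIs. The part of depth and of mixed droplets in these values was not tested.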

How the results depend on the processing

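The main comparison called 6 genes 2-fold higher and 3 lower. The count of lower genes was 5 in depth-matched cells, 5 with the high class at 3 or more IL1B UMIs, 9 by the mean CPM of each cell, 6 at a mitochondrial limit of 10%, 6 at an oligo share of 90% and 6 in low-cycle cells. Thinning all cells to 10000 UMIs before the classes were drawn gave 19 higher and 15 lower genes, a high class at 10 or more IL1B UMIs gave 10 higher, and no minimum gave 14 higher and 19 lower. A pseudocount of 5 CPM gave 3 higher, a minimum of 50 CPM gave 2 higher and 1 lower, and cells with 0 BST2 UMIs gave 3 higher and 10 lower. The thinned shares, 65 higher and 7 lower genes, became 1345 and 0 without thinning, 140 and 12 in low-cycle cells, and 19 lower in depth-matched cells. G0S2, 1.5-fold higher (log2 ratio 0.90), reversed to -0.18 in low-cycle cells; the cause was not tested. Over the 15 alternatives MMP1 ran from 1.55 to 2.07 and SERPINB2 from 1.08 to 1.67, and both stayed past 2-fold in each. CASC19 ran from 0.28 to 1.48, and IL1A from 0.64 to 0.97. CXCL1 missed 2-fold with classes drawn after thinning (0.96). MMP3 and CASC19 missed it at 3 or more IL1B UMIs (0.88 and 0.96), by per-cell means (0.84 and 0.99) and with a pseudocount of 5 CPM (0.80 and 0.71), where CCL20 (0.93) and C19orf33 (-0.78) did so too. C19orf33 was also just short of it in cells with 0 BST2 UMIs. DHRS2 was at -1.09 in cells of at least 20000 UMIs, but was not among the called genes there or in low-cycle cells. Of 39 named genes past 1.5-fold, 38 kept their sign in every alternative. TMM scaling shifted all log2 ratios by 0.04. No paired analysis was possible because both classes come from 1 library with no replicate numbers. Levels under 10 CPM, among them IL1R1 and CASP1, are limited by depth.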
